A study of Rattus norvegicus with 4 samples.

Results

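The tumour necrosis factor (TNF) superfamily was followed in rat spleen, with its ligands and its receptors described separately, on arrays of cells from rats given liposomes or saline. Members were taken by name. They are the probes, other than controls, whose gene is called Tnf, Lta or Ltb or has a name starting with Tnfsf or Tnfrsf, and whose spots stood well above background on both saline or both liposome arrays. Of 35 such probes among the 30367 on the array, 25 met this, and they cover 22 of 32 genes. The ligands gave 8 probes for 8 of 14 genes, and the receptors gave 17 probes for 14 of 18 genes.

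The study asked how liposomes, small vesicles of lipid, change gene expression in splenic cells. Male WKAH rats aged 8 to 12 weeks were injected with liposomes or with saline, and their spleens were removed 24 h later. Both groups went through the same magnetic enrichment, which took away cells carrying MHC class II and then retained cells carrying CD11b/c, an integrin found on myeloid cells. Each group has 2 one-colour Agilent arrays, called saline 1, saline 2, liposome 1 and liposome 2 after the number that follows "exp" at the end of each sample title, which both groups share. The sources used here do not give the liposomes' lipids or dose, or whether spleens were pooled. Nothing in the labels ties the arrays to separate animals. The p-values below therefore reflect the spread among these 4 samples alone, and that spread may be technical.

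Levels are given as scaled intensities, the brightness of a probe after the 75th percentiles of the 4 arrays were made equal. A difference is the mean log2 value of the liposome arrays minus that of the saline arrays, with its standard error (SE) from limma and n = 2 arrays per group. Adjusted p is limma's p with Benjamini-Hochberg adjustment over all 12858 genes tested, and 0.05 is the threshold. Between 61.3% and 66.3% of spots on each array were well above background. Over genes, which are not independent replicates, the correlation of log2 values was 0.989 for the saline pair, 0.993 for the liposome pair and 0.971 to 0.975 across groups. Limma called 1143 genes, which is 8.89% of those tested, and 621 of them were higher (4.83%) and 522 lower (4.06%) on the liposome arrays. With median scaling the split was 852 higher and 442 lower.

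TNF superfamily ligands are made as trimers on the surface of a cell, and proteases can release several of them. Their receptors cluster on binding and recruit either TRAF adaptors, which start NF-kB signalling, or death domain adaptors such as FADD, which can start cell death. In the spleen the family is known for organising lymphoid tissue (lymphotoxins), keeping B cells alive (the receptors of BAFF and APRIL), costimulating T cells (OX40, GITR and their relatives) and inflammation driven by macrophages (TNF itself).

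The level of each gene rests on a 60-base probe. Shown first are the probes of the ligand with the largest difference (Tnfsf15) and of the 2 ligands below 0 with the smallest adjusted p (Ltb and Tnfsf14), each read 5′ to 3′ as on the array, with no letters marked. The files place the Tnfsf15 probe at chr5:80700180-80700239 and the Ltb probe at chr20:3666709-3666768, both on the minus strand of rn4. They give the Tnfsf14 probe a minus strand span of 1770 bases on unplaced sequence.
Tnfsf15: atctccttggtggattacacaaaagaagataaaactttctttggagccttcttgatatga
Ltb: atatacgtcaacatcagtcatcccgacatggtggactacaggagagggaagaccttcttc
Tnfsf14: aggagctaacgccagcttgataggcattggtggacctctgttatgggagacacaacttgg

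Among the ligands, Tnfsf15 and Tnfsf12 passed the threshold, both higher on the liposome arrays, and no ligand passed in the other direction. These 2 were also the only calls over both classes, so 2 of 22 member genes (9.09%) passed against 8.89% of all genes, a share near the background. Tnfsf15 was a member through the liposome group only. Where probes had to be well above background on all arrays, Tnfsf12 was the only member called. No receptor passed the threshold in either direction. At an unadjusted p under 0.05 limma gave 5 ligands and 2 receptors, 7 of 22 in all, beside 32.5% of all genes. The median difference was 0.19 over the ligands, -0.29 over the receptors and -0.04 over all genes tested. With probes well above background on all arrays it was -0.26 over the ligands and -0.24 over the receptors. That filter leaves out Tnfsf15 and Tnfrsf13b. As reported, 4 ligands lay above 0 and 4 below.

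**Figure D1:**
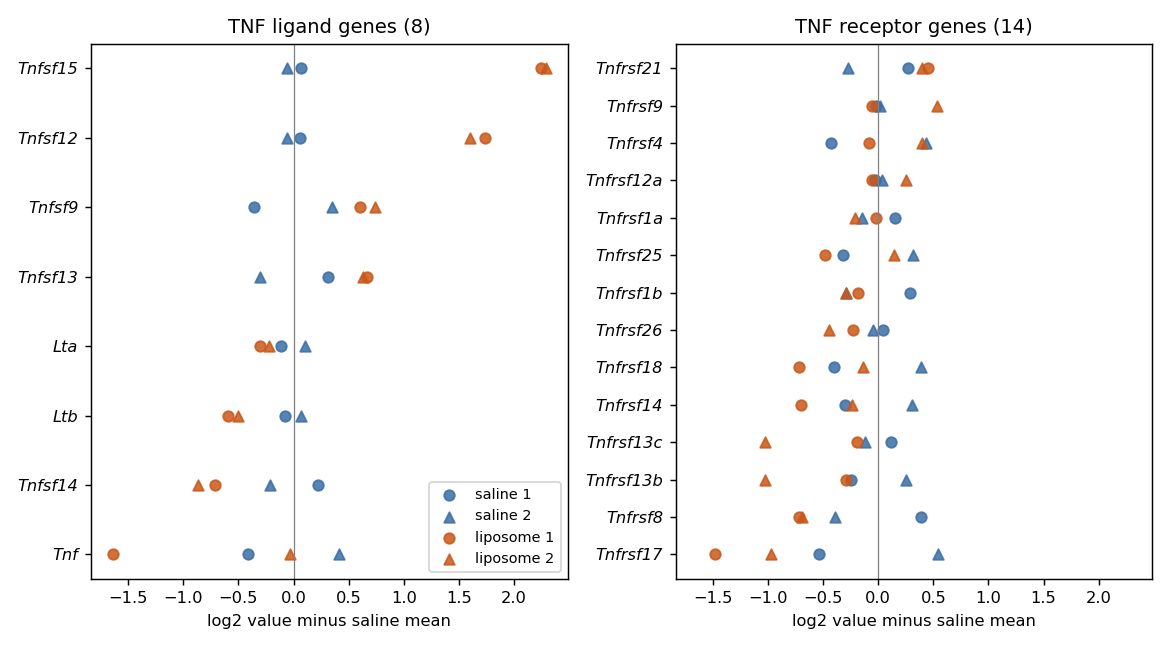
Log2 value of each gene on each of the 4 arrays minus the mean of its saline arrays (x axis), with ligands on the left and receptors on the right; circles are arrays numbered 1, triangles arrays numbered 2, blue saline and orange liposome. The liposome points of Tnfsf15 and Tnfsf12 lie far to the right of their saline points, while the 4 points of Tnf are spread over both sides.

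Tnfsf15 encodes TL1A, a ligand that costimulates T cells through the receptor DR3. Saline 1 had a scaled intensity of 48.6 and saline 2 one of 44.2, against 218 for liposome 1 and 226 for liposome 2. The groups lay far apart and each pair of arrays was close. The saline values sit near the lower limit of detection: the probe was well above background on saline 2 but not on saline 1, so it became a member through the liposome group. A filter met in this way favours probes that are higher in that group, and the call of Tnfsf15 carries that selection. The difference was 2.26 ± 0.11 (SE) on the log2 scale, or 4.79-fold, with an adjusted p of 0.00757 by limma. In a fit of normexp-corrected signals, which adds 50 to each signal, the difference was 1.28. The log2 difference was 2.17 between the arrays numbered 1 and 2.36 between those numbered 2.

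Tnfsf12 encodes TWEAK, a ligand with roles in tissue repair and inflammation that acts through the receptor Fn14. It was measured well above background on every array, with scaled intensities of 10300 (saline 1), 9560 (saline 2), 33100 (liposome 1) and 30100 (liposome 2). The liposome values do not come near the saline ones. The difference was 1.67 ± 0.11 (SE), or 3.18-fold, with an adjusted p of 0.0107 by limma. Within numbers it was 1.68 and 1.66. Without saline 1 the differences of Tnfsf12 and Tnfsf15 were 1.73 and 2.33, and without saline 2 they were 1.61 and 2.19. Without liposome 1 they were 1.60 and 2.29, and without liposome 2 they were 1.74 and 2.24. With either liposome array left out no gene passed the threshold, Tnfsf12 and Tnfsf15 included. Neither passed without the filter on dim probes either (limma adjusted p 0.158 and 0.143), where limma called 0 of 21971 genes and 3005 had an unadjusted p under 0.05.

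Other ligands lay above 0 without passing. Tnfsf13 encodes APRIL, which supports plasma cells, and its gene is the neighbour of Tnfsf12. Its scaled intensity was 10800 and 7070 on the saline arrays and 13900 and 13500 on the liposome arrays. The groups did not overlap, but the log2 value of saline 2 minus that of saline 1 was -0.61, larger in size than the 0.37 between saline 1 and liposome 1. The difference was 0.65 ± 0.23 (SE; limma adjusted p 0.143). Tnfsf9 encodes the ligand of the costimulatory receptor 4-1BB. It had 503 and 819 on the saline arrays and 975 and 1080 on the liposome arrays, a difference of 0.68 ± 0.26 (SE; limma adjusted p 0.168). Its liposome values were both above its saline values, with the saline arrays the more spread of the groups.

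Lymphotoxin genes and Tnfsf14 lay on the other side of 0. Ltb encodes lymphotoxin beta, which holds lymphotoxin complexes on the membrane and is a signal for lymphoid architecture. Its scaled intensity was 26400 and 29300 on the saline arrays and 18600 and 19700 on the liposome arrays, with no overlap. The difference of -0.54 ± 0.11 (SE) just missed the threshold (limma adjusted p 0.0591). Tnfsf14 encodes LIGHT, a ligand of HVEM and of the lymphotoxin beta receptor. It had 570 and 425 on the saline arrays and 300 and 268 on the liposome arrays, again without overlap, and a difference of -0.80 ± 0.18 (SE; limma adjusted p 0.0688). With normexp-corrected signals both passed the threshold, Ltb at -0.52 and Tnfsf14 at -0.64 (limma adjusted p 0.0479 and 0.0445). Lta, which encodes the soluble lymphotoxin alpha, had 520 and 602 against 455 and 481, a difference of -0.26 ± 0.12 (SE; limma adjusted p 0.22).

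Tnf, the founding cytokine of the family, had the largest SE among the 8 ligands taken by name. Its scaled intensity was 14700 on saline 1, 25900 on saline 2, 6250 on liposome 1 and 19100 on liposome 2. Liposome 2 lies between the saline arrays, so the groups overlap. The difference was -0.83 ± 0.63 (SE; limma adjusted p 0.406), and within numbers it was -1.23 and -0.44. With 1 array left out in turn it was -1.64 without liposome 2, -1.24 without saline 1, -0.42 without saline 2 and -0.03 without liposome 1. Its value on the arrays numbered 2 exceeded that on the arrays numbered 1 by 0.82 (saline) and 1.61 (liposome) on the log2 scale.

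The ligands Tnfsf10 (TRAIL), Tnfsf11 (RANKL), Tnfsf13b (BAFF), Tnfsf18 (GITR ligand) and Tnfsf8 (CD30 ligand) were not well above background on any array. Tnfsf4 (OX40 ligand) was so on saline 2 alone, at 76.2. No direction is given for these 6 genes.

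**Figure D2:**
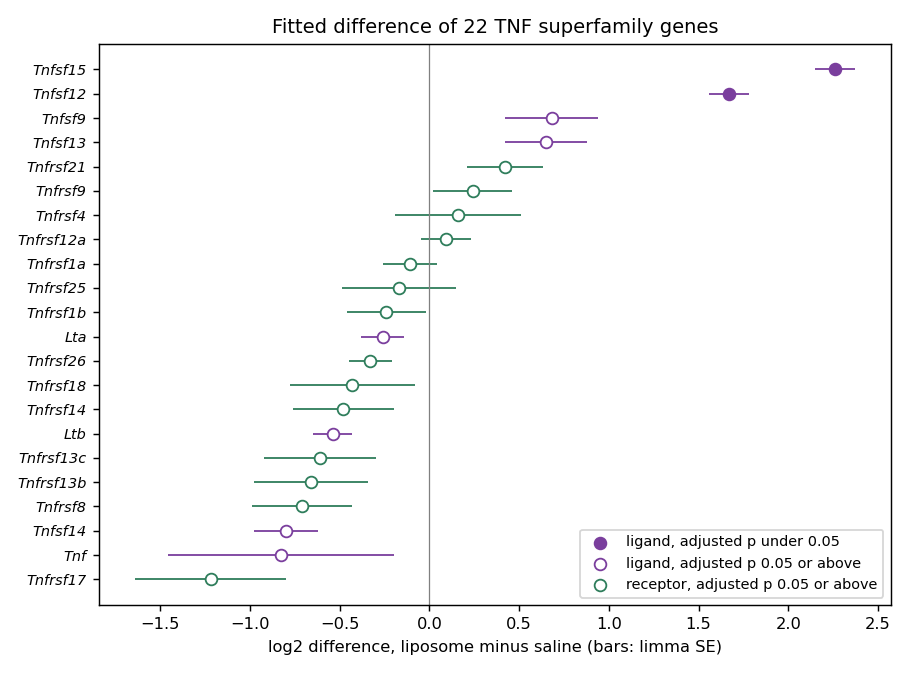
Difference between liposome and saline arrays of the 22 member genes (x axis, log2 scale; bars are limma's SE; 2 arrays per group), sorted by size, with ligands in purple and receptors in green; filled points passed the threshold. Tnfsf15 at 2.26 and Tnfsf12 at 1.67 stand apart from the other genes, which run from -1.22 (Tnfrsf17) to 0.68 (Tnfsf9).

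The receptors as a class had no gene past the threshold, and 10 of 14 lay below 0 (71.4%, against 53.9% of all genes). Their median of -0.29 was -0.22 between arrays numbered 1 and -0.24 between those numbered 2. Groups did not overlap for 6 of 14 receptors, 5 of them lower on the liposome arrays (Tnfrsf8, Tnfrsf13b, Tnfrsf13c, Tnfrsf17 and Tnfrsf26) and 1 higher (Tnfrsf21). Tnfrsf13b was kept through its saline arrays alone, so its place below 0 in these counts is favoured by the filter. Among ligands they did not overlap for 7 of 8, with 4 higher and 3 lower. Over both classes this makes 13 of 22 (59.1%), against 65.5% of all genes, of which 30.4% lay higher and 35.1% lower. Groups that do not overlap are thus the usual case over all genes on these arrays.

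The receptors of B cells and plasma cells all lay below 0. Tnfrsf17 encodes BCMA, a receptor of plasma cells, and had 670 and 1410 on the saline arrays and 349 and 499 on the liposome arrays. Its groups did not overlap, the saline arrays were far apart, and its difference was -0.94 between the arrays numbered 1 and -1.50 between those numbered 2. The fitted difference of -1.22 ± 0.42 (SE) did not pass (limma adjusted p 0.135). Tnfrsf13c, which encodes the BAFF receptor, had 469 and 396 against 376 and 211, a difference of -0.61 ± 0.31 (SE; limma adjusted p 0.251). Tnfrsf13b, which encodes TACI, had 88.8 and 126 against 86.2 and 51.7. It was not well above background on liposome 2 and was a member through the saline group alone, which favours lower liposome values. Its difference of -0.66 ± 0.32 (SE; limma adjusted p 0.233) carries that selection. Markers of B and plasma cells had the same sign between groups, as did the medians of the NK cell, neutrophil, dendritic cell and red cell markers given below. All 9 measured B and plasma cell markers of 10 listed were below 0 with a median of -0.68. None of them passed the threshold (limma, 7 at an unadjusted p under 0.05). Their summed scaled intensity was 61300 and 59000 on the saline arrays and 43000 and 33900 on the liposome arrays. From number 1 to number 2 their median log2 change was -0.18 (saline) and -0.36 (liposome). That of Tnfrsf17 was 1.08 and 0.52, that of Tnfrsf13b 0.50 and -0.74, and that of Tnfrsf13c -0.24 and -0.83. Cd79a, which encodes a part of the B cell receptor complex, had 3900 and 3340 against 2470 and 1890. B cells carry MHC class II, so the depletion step acts on them, and these markers were still detected after it. In RNA of a mixed fraction such as this, fewer cells of a type and less RNA per cell cannot be told apart, and the part of these cells in the receptors' values was not tested.

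Tnfrsf8 encodes CD30, a receptor of activated lymphocytes. It has 2 member probes, which lie next to each other at chr5:163716659-163716718 and chr5:163716998-163717057 on the minus strand of rn4. The one used for the gene had 290 and 169 on the saline arrays and 134 and 137 on the liposome arrays, a difference of -0.71 ± 0.28 (SE; limma adjusted p 0.175). The other had 50.2 and 75.5 against 31.4 and 39, a difference of -0.81 (limma adjusted p 0.116 when each probe is fitted on its own), and was not well above background on liposome 2. Both have liposome values below both saline values, although saline 1 is the higher saline array on one probe and the lower on the other. The second probe was kept through its saline arrays alone, which favours lower liposome values, and the average below includes it. With a gene's probes averaged, Tnfrsf8 passed at -0.76 (limma adjusted p 0.0386). Saline 2 minus saline 1 was -0.78 on one probe and 0.59 on the other, and these cancel in the average. Its SE was therefore 0.12, against 0.28 and 0.25 for the probes fitted on their own, and the pass rests on that. On the probe used, the difference was -1.10 without saline 2 and -0.32 without saline 1.

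The receptors of TNF itself differed little. Tnfrsf1a, the death domain receptor found on most cells, had 16000 and 13100 on the saline arrays and 14300 and 12500 on the liposome arrays, a difference of -0.11 ± 0.15 (SE; limma adjusted p 0.639). Tnfrsf1b, the TRAF-binding receptor of leukocytes, had 41200 and 27600 against 29800 and 27500, a difference of -0.24 ± 0.22 (SE; limma adjusted p 0.495). Groups overlapped for both, and without saline 1 the differences were 0.04 and 0.05. The second probe of Tnfrsf1b had 8550 and 6950 against 5290 and 5560, without overlap, at -0.51 (limma adjusted p 0.103 when each probe is fitted on its own). The probes of this gene thus share a sign and differ in size.

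The receptors that costimulate T cells were spread over both sides of 0, and all of them overlapped between groups. Tnfrsf14, which encodes HVEM, the receptor of LIGHT, had 4660 and 7140 on the saline arrays and 3540 and 4860 on the liposome arrays (-0.48 ± 0.28, SE; limma adjusted p 0.304). Tnfrsf18, which encodes GITR, had 284 and 492 against 227 and 339 (-0.43 ± 0.35, SE; limma adjusted p 0.437). Tnfrsf25, which encodes DR3, had 214 and 333 against 191 and 293 (-0.17 ± 0.32, SE; limma adjusted p 0.735). In each of these genes the array numbered 2 was the higher of its group. Tnfrsf4, which encodes OX40, had 595 and 1080 against 761 and 1060 (0.16 ± 0.35, SE; limma adjusted p 0.772). Tnfrsf9, which encodes 4-1BB, had 213 and 220 against 208 and 312 (0.24 ± 0.22, SE; limma adjusted p 0.497). The signs of Tnfrsf25, Tnfrsf4 and Tnfrsf9 each turned with 1 array left out.

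Of the remaining receptors, Tnfrsf21, which encodes the death receptor DR6, had the highest difference of the class. Its probe is spotted 10 times on each array, and its scaled intensity was 2950 and 2040 on the saline arrays and 3360 and 3230 on the liposome arrays. Over the 10 spots the log2 SD was between 0.04 and 0.09 on each array and the log2 value of saline 2 minus that of saline 1 was -0.54. The difference was 0.42 ± 0.21 (SE; limma adjusted p 0.235). Its second probe had 244 and 173 against 272 and 260, at 0.37 (limma adjusted p 0.272 when each probe is fitted on its own). Tnfrsf26, a TNF receptor homologue, had 4340 and 4070 against 3590 and 3090 (-0.33 ± 0.12, SE; limma adjusted p 0.153). Tnfrsf12a, which encodes Fn14, the receptor of TWEAK, had 440 and 459 against 429 and 532 (0.09 ± 0.14, SE; limma adjusted p 0.697). The receptor genes Tnfrsf10b, Tnfrsf11a, Tnfrsf11b and Tnfrsf19 were not well above background on any array.

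Ligands were set beside their receptors in 13 known pairs, superfamily genes under other names included. In 2 pairs the ligand passed the threshold, and in 0 the receptor did. Tnfsf15 stood at 2.26 and its receptor Tnfrsf25 at -0.17. Tnfsf12 stood at 1.67 and its receptor Tnfrsf12a at 0.09. Tnfsf13 stood at 0.65 while its receptors Tnfrsf13b and Tnfrsf17 stood at -0.66 and -1.22, and none of these 3 passed. Tnfsf14 and Tnfrsf14 were both below 0, at -0.80 and -0.48.

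Superfamily genes that carry other names were read from the same fit. Of the 4 ligands listed (Cd40lg, Cd70, Eda and Faslg), only Faslg was measured, since the probes of the others did not pass the filter. Faslg, which encodes the death ligand of cytotoxic cells, had 695 on saline 1, 2810 on saline 2, 327 on liposome 1 and 922 on liposome 2. Its groups overlapped and both arrays numbered 2 were the high ones (-1.35 ± 0.86, SE; limma adjusted p 0.341). Within numbers the difference was -1.09 and -1.61. Number 2 exceeded number 1 by 2.01 (saline) and 1.49 (liposome) on the log2 scale. Leaving out saline 1 or saline 2 gave -2.35 or -0.34, and leaving out liposome 1 or liposome 2 gave -0.60 or -2.09. Each of these fits leaves the title numbers unequal between the groups. Of the 8 receptors listed, 6 were measured and 1 passed, beside 8.89% of all genes. Ngfr, the low-affinity neurotrophin receptor, fell by 0.72 ± 0.12 (SE), from 1010 and 870 to 565 and 574 (limma adjusted p 0.0431). Its adjusted p was 0.055 to 0.236 by limma with any 1 array left out. Cd40, the receptor through which T cells license B cells and macrophages, had 5850 and 5020 against 3890 and 3450 and did not pass (-0.57 ± 0.13, SE; limma adjusted p 0.0741). Fas stood at -0.71 (limma adjusted p 0.12), Relt at -0.28 (0.266), Ltbr, the lymphotoxin beta receptor, at 0.20 (0.447) and Cd27 at 0.42 (0.631). The probes of Eda2r and Edar did not pass the filter.

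**Figure D3:**
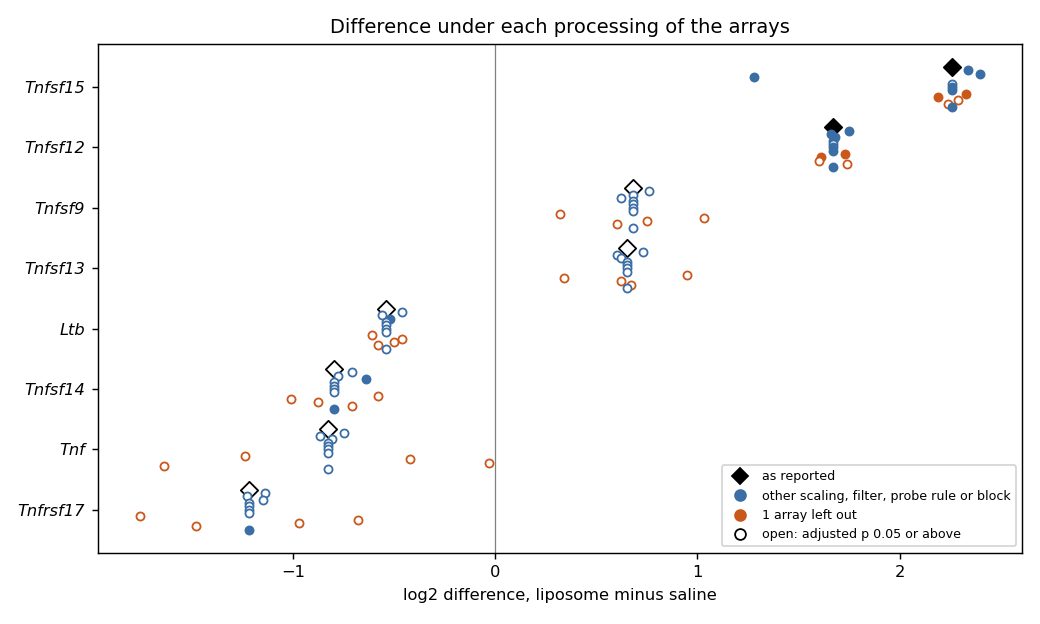
Difference between liposome and saline arrays (x axis, log2 scale) of the ligands other than Lta and of Tnfrsf17 under each way of processing the arrays; black diamonds are the values as reported, blue points other scalings, filters, probe rules or the title number as a block, orange points 1 array left out, and filled points passed the threshold. Tnfsf15 ranges from 1.28 to 2.40 and Tnfsf12 from 1.60 to 1.75, while Tnf ranges from -1.64 to -0.03.

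Several members are neighbours on their chromosome. The Lta, Tnf and Ltb probes lie in a row on chromosome 20, 3754 and 3091 bases apart on rn4, and the gene table shows no other coding gene between these genes. Their differences were -0.26, -0.83 and -0.54. Tnfsf13 and Tnfsf12 are adjacent on chromosome 10, with 3143 bases between their probes, and stood at 0.65 and 1.67. Tnfsf15 is adjacent to Tnfsf8 on chromosome 5, whose probe was below background. Of the 14 receptor genes, 7 have their probes on chromosome 5 between positions 163664159 and 172870254 of rn4, among them the neighbours Tnfrsf1b and Tnfrsf8 (-0.24 and -0.71) and Tnfrsf4 and Tnfrsf18 (0.16 and -0.43). By fitted value, neighbours shared a sign in the lymphotoxin cluster, at Tnfsf13 and Tnfsf12 and at Tnfrsf1b and Tnfrsf8, and had opposite signs at Tnfrsf4 and Tnfrsf18. Most of these signs are uncertain, since only Tnfsf12 among these neighbours passed the threshold. On the probes used, groups overlapped for Tnf, Tnfrsf1b, Tnfrsf4 and Tnfrsf18, and the signs of Tnfrsf1b and Tnfrsf4 turned with 1 array left out.

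Promoters of 18 of the 22 member genes were found in the RefSeq table for GRCr8 (those of Tnfrsf14, Tnfrsf18, Tnfsf12 and Tnfsf9 are not used here). The 250 bases before each start were searched on both strands for the NF-kB consensus, for TGACTCA (AP-1), for TCACGTG (the core of the lysosomal CLEAR element) and for TATAAA. The NF-kB consensus matched in Lta, Ltb, Tnfrsf8 and Tnfsf14, which is 4 of 18 genes, against 6.33% of the 33465 promoters in the table. TGACTCA was found in Tnfrsf1b and Tnfrsf8 (4.05% of all promoters), TCACGTG in 0 of 18 (2.79%) and TATAAA in Lta, Tnf, Tnfrsf17 and Tnfsf15 (12.9%). A match is a run of letters and not a shown binding site. The last 120 bases before the start of the clustered genes and of Tnfsf15 are printed. These genes include neighbours whose fitted values shared a sign, none of which passed the threshold, and the ligand with the largest difference. They lie at chr20:3623407-3623526 (Lta, plus strand), chr20:3626565-3626684 (Tnf, plus strand), chr20:3634055-3634174 (Ltb, minus strand) and chr5:82171659-82171778 (Tnfsf15, minus strand) of GRCr8. Capitals mark the NF-kB consensus and TATAAA, and the match of Tnfsf15 lies further upstream than the stretch shown.
Lta: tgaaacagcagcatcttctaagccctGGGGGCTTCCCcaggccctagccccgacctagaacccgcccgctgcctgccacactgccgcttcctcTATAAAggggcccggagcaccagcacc
Tnf: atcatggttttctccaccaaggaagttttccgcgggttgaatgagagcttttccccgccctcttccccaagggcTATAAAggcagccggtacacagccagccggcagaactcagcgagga
Ltb: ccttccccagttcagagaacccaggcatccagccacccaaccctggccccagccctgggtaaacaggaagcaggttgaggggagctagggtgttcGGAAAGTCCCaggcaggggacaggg
Tnfsf15: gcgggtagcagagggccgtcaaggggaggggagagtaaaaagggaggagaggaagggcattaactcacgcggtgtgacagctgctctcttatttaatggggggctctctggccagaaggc

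Genes that carry the receptors' signal were followed next. As a background, 4.83% of all genes tested were called higher and 4.06% lower. Of 47 listed adaptors and NF-kB pathway genes 37 were measured, and 1 rose, 0 fell and 36 did not pass. Their median was -0.20, with 27 below 0. The gene that rose was Fadd, the death domain adaptor. Its probe did not rise clearly over background in the saline group (25.1 and 33) and had 74.3 and 97.6 on the liposome arrays, which is at least 2.38-fold higher (limma adjusted p 0.0324), a bound taken against the lowest value that counts as detected on each saline array, or the probe's value where that is higher. Fadd was kept for its liposome arrays alone, which favours higher values there, and its call carries that selection. With quantile normalization (limma adjusted p 0.0716), with normexp (0.0553), or without any 1 array (0.0551 to 0.146) Fadd did not pass.

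Genes of ligand and receptor shedding had 12 of 14 listed members measured, of which 1 fell, none rose and 11 did not pass, with a median of -0.20. Of all genes, 4.06% were called lower and 4.83% higher. Adam8, a membrane protease of leukocytes, fell by 0.72 ± 0.12 (SE), from 1160 and 1230 to 682 and 776 (limma adjusted p 0.0427). It did not pass with median scaling (-0.64, limma adjusted p 0.0578) or with any 1 array left out (0.0805 to 0.239). Adam17, the protease that releases TNF, had 908 and 745 on the saline arrays and 1030 and 1040 on the liposome arrays and did not pass (0.33 ± 0.13, SE; limma adjusted p 0.18); it was named for its role, after its values were seen.

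Among 35 listed target genes of NF-kB 30 were measured, and 5 rose, 2 fell and 23 did not pass. Of all genes, 4.83% were called higher and 4.06% lower. Where probes had to be well above background on all arrays, 6 targets passed. The median of the list was -0.27 and 21 lay below 0, so the genes that rose went against most of their list. Plau, which encodes urokinase, was likewise near background in the saline group (30.8 and 20.8) and had 708 and 805 on the liposome arrays, at least 21.1-fold higher (limma adjusted p 0.00757), and like Fadd it was kept for its liposome arrays alone. Il1a, which encodes the cytokine interleukin-1 alpha, rose from 260 and 171 to 1420 and 1600 (2.84 ± 0.23, SE; limma adjusted p 0.0151). Bcl2l1 and Bcl2a1, both of which encode inhibitors of cell death, rose by 1.78 and 0.84 (limma adjusted p 0.00837 and 0.0267), and Tnfaip2, a gene first found as induced by TNF, rose by 1.08 (0.0243). Vcam1, an adhesion molecule, fell by 1.54 ± 0.19 (SE), from 7200 and 8200 to 3080 and 2260 (limma adjusted p 0.0272). Irf1, a transcription factor of the interferon response, fell by 0.91 (limma adjusted p 0.0308). Without saline 1, saline 2, liposome 1 or liposome 2 the list had 6, 4, 0 and 0 genes past the threshold.

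**Figure D4:**
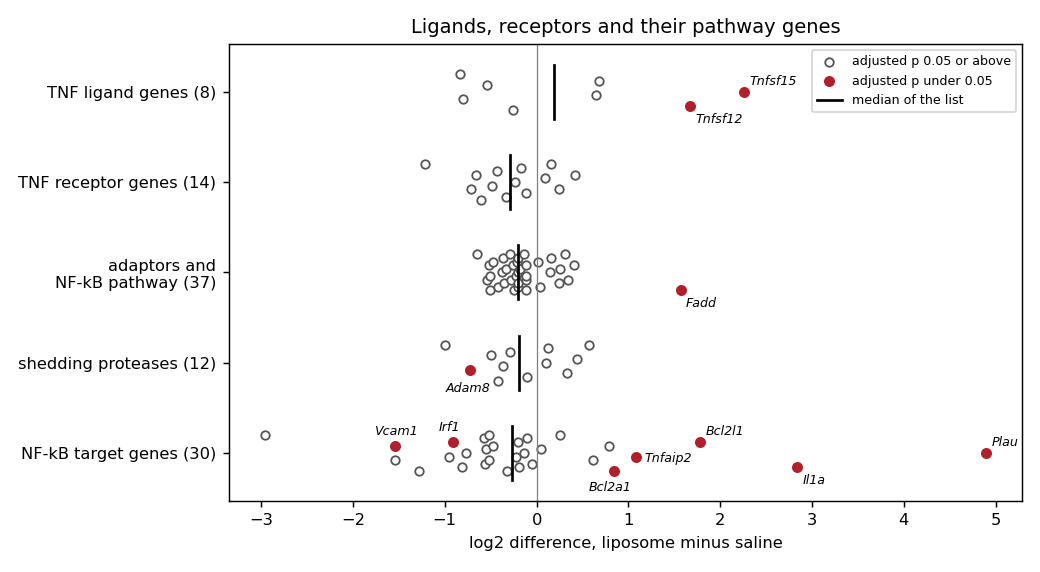
Fitted difference between liposome and saline arrays (x axis, log2 scale) of every measured gene of the ligands, the receptors and the 3 pathway lists, 1 point per gene, with the number of genes in brackets; red points passed the threshold and are named, and a black line is the list's median. The points of Fadd and Plau are fitted values of genes not above background on the saline arrays, whose folds are at least 2.38 and 21.1. Each list lies mostly below 0 apart from the ligands, with medians of -0.29 for the receptors and -0.27 for the NF-kB targets.

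Arrays with the same title number shared a pattern that touched the members. In 11 of 22 member genes (50%, against 24.6% of all genes) the array numbered 2 was the higher in both groups. In 8 it was the lower in both, a count that cannot be judged, since the share of all genes was not taken. The 11 genes were Lta, Ltb, Tnf, Tnfsf9, Tnfrsf12a, Tnfrsf14, Tnfrsf17, Tnfrsf18, Tnfrsf25, Tnfrsf4 and Tnfrsf9. Tnfsf12 was among the 8 genes lower on number 2 in both, but only by 0.11 and 0.14 on the log2 scale.

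Markers of T and natural killer (NK) cells were also higher on number 2. All 9 measured T cell markers were, with a median of 1.36 in the saline and 1.02 in the liposome group, and so were 8 of 9 NK cell markers (1.69 and 1.58). The summed scaled intensity of the T cell markers was 17000 (saline 1), 43900 (saline 2), 18300 (liposome 1) and 35800 (liposome 2). That of the NK cell markers, in the same order, was 32700, 103000, 14300 and 42300. Between groups the T cell markers had a median of -0.11 and the NK cell markers of -1.27, with none past the threshold in either list. Faslg, Tnf and the T cell costimulators OX40, GITR and DR3 were likewise higher on number 2 in both groups, and the part of T and NK cells in their values was not tested.

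**Figure D5:**
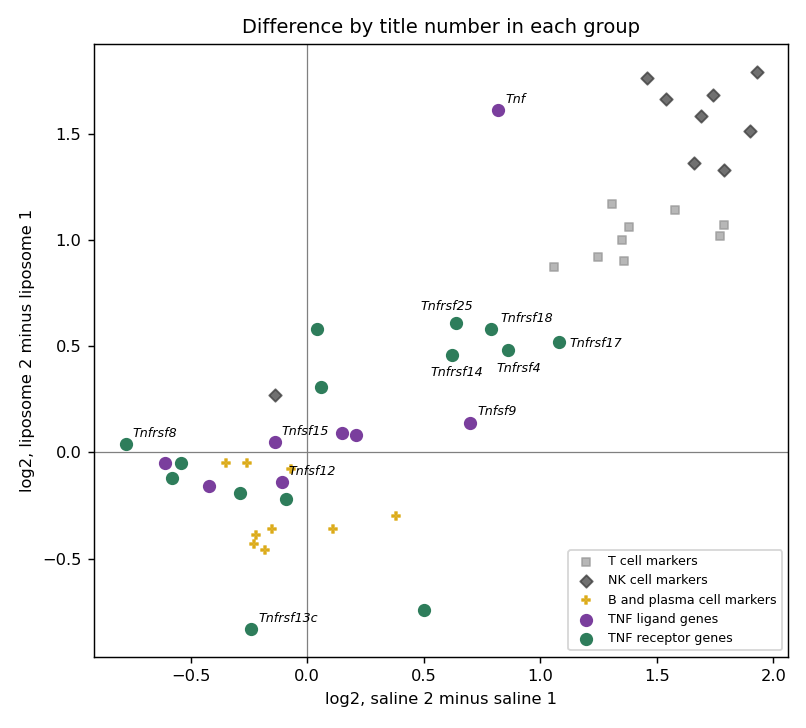
Log2 difference between the arrays numbered 2 and 1 in the saline group (x axis) and in the liposome group (y axis), 1 point per gene, for ligands (purple), receptors (green) and markers of T, NK and B or plasma cells. The T and NK cell markers lie in the upper right apart from 1 NK cell gene, Tnf lies at 0.82 and 1.61, and Tnfsf12 and Tnfsf15 lie close to 0 on both axes.

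Markers of the labelled myeloid fraction were present. All 12 macrophage and monocyte markers were measured, of which 1 rose (Mertk, at least 6.38-fold) and 5 fell, with a median of -0.42. Those that fell were Fcgr3a (-2.34), Cd5l (-2.13), C1qa (-1.73), C1qb (-1.71) and Cd163 (-0.96). Mertk was kept for its liposome arrays alone, which favours higher values there. Without either of them its call ended, as did that of every gene. Its fitted difference was 3.03 without saline 1, 2.44 without saline 2, 2.61 without liposome 1 and 2.85 without liposome 2. The summed scaled intensity of the 12 markers was 225000 and 256000 on the saline arrays and 221000 and 234000 on the liposome arrays. Lyz2 alone gave 101000 and 137000 (saline) and 117000 and 134000 (liposome) of it. Itgam, the gene of CD11b itself, had 4440 and 3000 against 5150 and 4880. Of 8 measured neutrophil markers 6 fell (median -0.81), of 6 dendritic cell markers 3 fell (-1.04), and of 5 red cell markers 4 fell (-1.33). Of all genes, 4.06% were called lower and 4.83% higher. Of 2 platelet markers 1 rose and 1 fell. The part of each of these cell types in the ligand and receptor values was not tested.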

How the data were processed

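The authors deposited spot intensities, which are linear. Agilent Feature Extraction 10.7.3.1 read the arrays, per the submitters' processing notes. Per the file headers, the processed intensity is corrected for background within an array and not scaled between arrays. Probe positions are the files' own, on rn4 (RGSCv3.4), without an annotation of exons or introns. Controls and outlier spots were dropped, replicate spots averaged, and log2 intensities set relative to their array's 75th percentile. A probe was kept if both arrays of a group had it well above background, and a gene was read from its probe with the highest mean. Limma 3.58.1 (lmFit, eBayes; 2.26 prior and 2 residual degrees of freedom) was run on 12858 genes in R 4.3.3 with version 1.17.8 of data.table and checked on simulated data. With 2 arrays per group an exact permutation test reaches 0.333 at best and was not run. The 4 arrays share 1 slide and 1 scan. For arrays, their number limits the precision. No member spot was saturated. All member genes are named, as are superfamily genes under other names and pathway genes past the threshold. The members, lists and rules were chosen with earlier results of these data known.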

Additional observations from a re-analysis of the deposited data

How the results depend on the processing

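Ligands against receptors, the receptors' median lay between -0.35 and -0.21 under all 12 alternatives, while the ligands' median, 0.19 as reported, was -0.26 where probes had to be well above background on all arrays, which leaves out Tnfsf15, and -0.02 to 0.30 with 1 array left out (-0.02 without saline 1, 0.09 without saline 2). The number of all genes past limma's threshold was 1720 with normexp, 0 without the filter on dim probes (smallest adjusted p 0.143, 3005 at an unadjusted p under 0.05) and 0 to 499 with 1 array left out (499 without saline 1, 372 without saline 2, 0 without either liposome array, where the lone array is assumed to vary like the other group's). The number of member genes past it, 2 as reported, was 4 with normexp, 1 with all arrays above background, 0 without the filter (4 at an unadjusted p under 0.05) and 0 to 3 with 1 array left out. With the title number as a replicate block limma called 1816 genes and 4 members, adding Tnfsf14 and Tnfrsf17 (adjusted p 0.0345 and 0.0303). The genes named were followed through the alternatives, except Fcgr3a, Cd5l, C1qa, C1qb, Cd163 and Lyz2. Of those followed that are not members, the block added Faslg, Fas, Cd40 and Cd79a (limma adjusted p 0.0241, 0.0322, 0.0469 and 0.0336). The titles put "exp" before the number without saying what the arrays that share it have in common, and over genes the differences between numbers correlated at 0.355 between the groups. Of the genes followed, 8 turned sign or, for Ltbr, came to 0, each only with 1 array left out. Their ranges over the arrays left out were 0.04 to -0.26 for Tnfrsf1a, 0.05 to -0.53 for Tnfrsf1b, -0.27 to 0.59 for Tnfrsf4 (-0.08 without liposome 2), 0.15 to -0.49 for Tnfrsf25 (0.14 without liposome 1), -0.07 to 0.24 for Tnfrsf12a, -0.06 to 0.53 for Tnfrsf9, -0.23 to 1.08 for Cd27 (-0.06 without liposome 2) and 0 to 0.40 for Ltbr. The cause of these changes was not tested. Probes near background, among them those of Tnfsf15, Tnfrsf13b and Tnfrsf8, have the least certain folds.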
